A study of Arabidopsis thaliana with 18 samples.

Results

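GH3.3 (AT2G23170), GH3.5 (AT4G27260, listed under the symbol WES1 in the TAIR10.1 gene table) and IAA29 (AT4G32280) are auxin-response genes of Arabidopsis thaliana, followed here across 18 Affymetrix ATH1 arrays of the accession Cvi-1. Each was read from the probe set that the platform gene table pairs with that gene alone, which was 245076_at for GH3.3, 253908_at for GH3.5 and 253423_at for IAA29. These are 3 of 22746 probe sets, of which 13513 are paired with 1 gene and 13648 were bright enough to be tested, all 3 genes among them. GH3.3 lies on chromosome 2 with 1 RefSeq transcript, and GH3.5 with 1 and IAA29 with 3 lie on chromosome 4. Salicylic acid (SA) at 0.30 mM, dissolved in 0.02% silwet, was given to 9 samples, and silwet at 0.02% alone to the other 9, so the surfactant was common to all. Arrays are named by the serial number in the title, which is 28 to 36 for SA and 19 to 27 for silwet. The serials form 3 blocks per treatment, arrays 28 to 30 with 19 to 21 (block 1), 31 to 33 with 22 to 24 (block 2) and 34 to 36 with 25 to 27 (block 3), and each block holds replicate numbers 1, 2 and 3 once per treatment. The sources used here do not give what a block stands for, nor the plants' age, the tissue or the time of harvest.

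GH3 enzymes join auxin, mainly indole-3-acetic acid, to amino acids and so lower the free hormone, and their genes are themselves switched on by auxin. GH3.5 of Arabidopsis is known to act on SA as well as on auxin. IAA29 is an Aux/IAA protein, one of the repressors that are degraded when auxin binds its receptors, and its transcript is also known to respond to shade through phytochrome-interacting factors. SA is a hormone of plant defence that is known to dampen auxin responses in Arabidopsis.

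The leaf markers RCA, the Rubisco activase, and LHCB4.1, a light-harvesting protein, had signals of 1760 to 3247 and 2430 to 3576, and the root hair expansins EXPA7 and EXPA18 stayed at or under 16.1 and 16.3. The other leaf and root markers, and every flower and seed marker on the list, were without a probe set that the gene table gives to them alone and were not analysed here. Median signal per array was 31.7 to 38.7, and 33.6% to 38.8% of probe sets were under a signal of 16, with array 34 at the low end of the medians and the high end of the shares. Arrays 28 and 30 (SA) and array 20 (silwet), all of block 1, stand apart in UGT76B1, an SA glycosyltransferase, with signals of 1238, 1552 and 1540, against at most 77.6 in the other 15. Array 29, the SA sample that shares replicate number 2 and block 1 with array 20, had 41.2. Results that rest on these arrays are given with and without them. The labels do not state that samples are separate plants. The p-values therefore measure only how far these samples spread, which may be technical, and precision is limited by how many arrays there are.

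GH3.3 was the most variable of the 3 genes and was highest in block 1. In block 1 its signal was 95.6, 39.9 and 206.2 in SA replicates 1 to 3, against 26.6, 206.8 and 53.2 in silwet replicates 1 to 3. The highest of these were arrays 30, 20 and 28, and the treatments overlapped. In block 2 it was 41.9, 64.7 and 48.7 with SA, against 32.2, 89.2 and 40.7 with silwet, and in block 3 it was 4.26, 26.0 and 47.7 with SA, against 18.5, 44.3 and 34.5 with silwet. The treatments overlapped in each of these blocks too, and array 34, SA replicate 1 of block 3, was the lowest of all 18.

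GH3.5 followed a similar order with a narrower range. In block 1 its signal was 70.2, 61.4 and 108.3 in SA replicates 1 to 3, against 37.5, 103.1 and 77.2 in silwet replicates 1 to 3. Every block 1 sample except silwet replicate 1 was above every sample of blocks 2 and 3. How many tested probe sets have that order was not counted, and 6.62% were called lower in block 3 than in block 1. In block 2 GH3.5 was 27.3, 42.8 and 34.0 with SA, against 33.9, 38.0 and 43.6 with silwet, and in block 3 it was 9.85, 43.2 and 59.4 with SA, against 30.3, 30.7 and 44.4 with silwet. Array 34 was again the lowest, and the treatments overlapped in all 3 blocks.

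IAA29 had its widest gap between signals of 29.0 and 47.5. Arrays under and over that gap are called low and high here, and whether they form 2 levels was not tested. In block 1 its signal was 15.99, 15.5 and 15.7 in SA replicates 1 to 3, against 19.9, 18.5 and 29.0 in silwet replicates 1 to 3. In block 2 it was 17.9, 63.1 and 20.5 with SA, against 13.5, 47.7 and 47.5 with silwet. In block 3 it was 11.4, 60.5 and 63.7 with SA, against 10.8, 52.4 and 52.1 with silwet. The high level, 47.5 to 63.7, was met in 7 arrays, all of replicate number 2 or 3 in blocks 2 and 3, and the other 11 arrays lay between 10.8 and 29.0. Within blocks 2 and 3 the only replicate 2 or 3 array at the low level was array 33, SA replicate 3 of block 2.

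**Figure D1:**
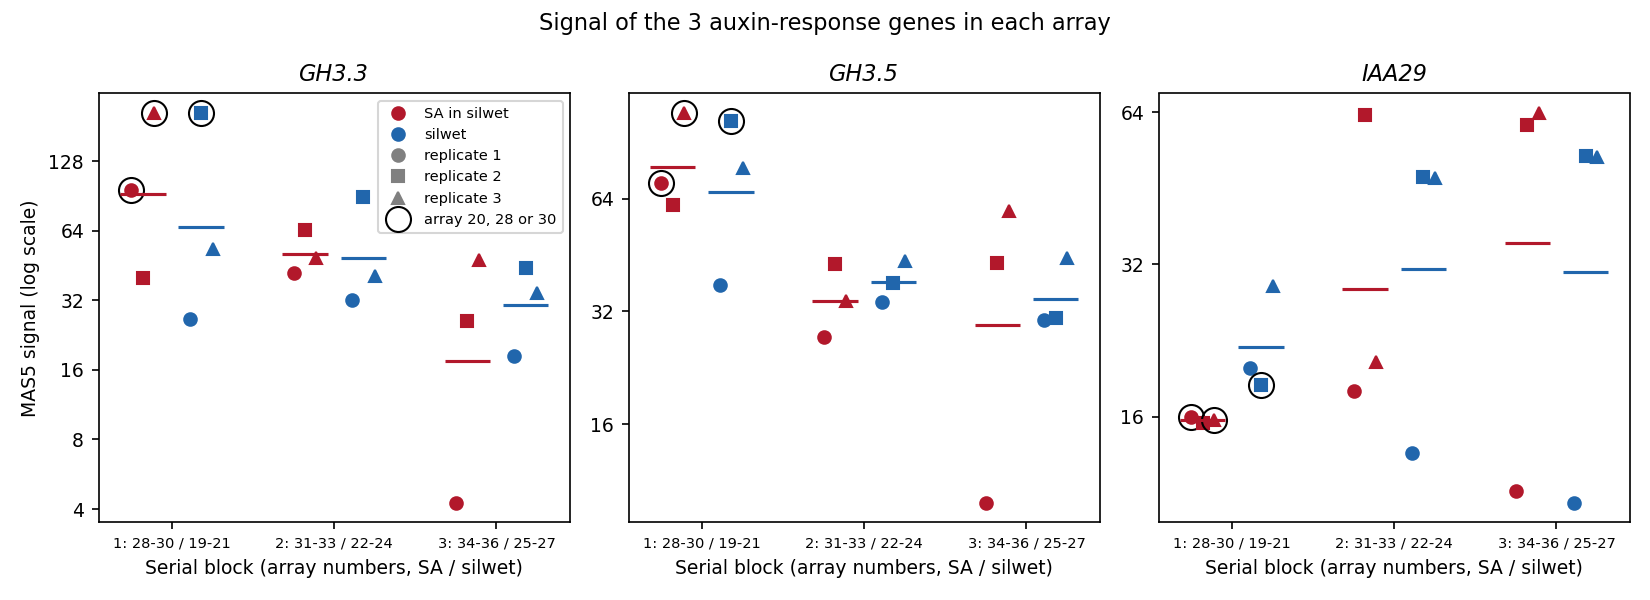
Signal of GH3.3, GH3.5 and IAA29 (log axis) in each of the 18 arrays, by serial block, with SA in silwet left of silwet alone, symbols for the replicate number, and a horizontal line at each mean of log2 signal (n = 3). Ringed points are arrays 20, 28 and 30; they top the GH3.3 panel at 95.6 to 206.8, while IAA29 is high, at 47.5 to 63.7, only among replicates 2 and 3 of blocks 2 and 3.

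All 3 genes spread more widely than most. The SD of log2 signal over the 18 arrays stood at the 99.3rd percentile of the tested probe sets for GH3.3, the 95.4th for GH3.5 and the 97.3rd for IAA29. Much of the IAA29 range, and the lowest GH3.3 and GH3.5 values, lie near or under a signal of 16, where MAS5 signal is least precise, so no fold of the highest over the lowest array is given.

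The comparison of SA with silwet asks whether the hormone changed these transcripts. Over all samples GH3.3 had a lowest, median and highest signal of 4.26, 47.7 and 206.2 with SA, against 18.5, 40.7 and 206.8 with silwet. For GH3.5 the same values were 9.85, 43.2 and 108.3 with SA, against 30.3, 38.0 and 103.1 with silwet. IAA29 had 11.4, 17.9 and 63.7 with SA, against 10.8, 29.0 and 52.4 with silwet. The treatments overlapped over most of the range of each gene. In RNA that is not from single cells, a change in the number of cells of a type and a change in RNA per cell cannot be told apart.

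None of the 3 genes was called for SA. Averaged over the blocks, the log2 difference of SA minus silwet was -0.09 for GH3.3 (SE 0.48, 95% interval -1.10 to 0.92), -0.06 for GH3.5 (SE 0.29, -0.68 to 0.55) and -0.14 for IAA29 (SE 0.41, -1.01 to 0.73). In limma, 0.0% of the 13648 tested probe sets were called at an adjusted p under 0.05, and 106 had an unadjusted p under 0.05. The intervals include a decrease of 1 log2 unit for GH3.3 and IAA29, and no increase of that size for any of the 3 genes.

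Within single blocks the estimates differed in sign without passing the test. For GH3.3 the SA difference was 0.48 in block 1, 0.06 in block 2 and -0.81 in block 3 (log2, SE 0.82 each). For GH3.5 it was 0.22, -0.17 and -0.24 in blocks 1 to 3 (SE 0.50), and for IAA29 -0.48, -0.13 and 0.19 (SE 0.71). The negative block 3 values of GH3.3 and GH3.5 turned on array 34, SA replicate 1, with signals of 4.26 and 9.85. Without array 34 the block 3 difference was 0.21 for GH3.3, 0.55 for GH3.5 and 1.01 for IAA29. limma called 0.0% of probe sets in each block, and the unadjusted p was under 0.05 for 121, 56 and 337 of them in blocks 1, 2 and 3. The test of a difference in SA effect between blocks called 0.0% as well (91 had an unadjusted p under 0.05), and gave unadjusted limma p-values of 0.544 for GH3.3, 0.796 for GH3.5 and 0.801 for IAA29. IAA29 was lower in every SA sample than in every silwet sample of block 1, which 1.55% of tested probe sets were too.

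The block 1 estimate of the GH3 genes turned on the replicate 2 samples. GH3.3 was higher with SA than with silwet by a log2 difference of 1.85 between the replicate 1 samples and 1.95 between the replicate 3 samples, and differed by -2.37 between the replicate 2 samples, arrays 29 (SA) and 20 (silwet). For GH3.5 these differences were 0.90, 0.49 and -0.75 for replicates 1, 3 and 2. Without arrays 29 and 20 the block 1 difference was 1.90 for GH3.3 (SE 0.84, 95% interval 0.11 to 3.69, limma adjusted p = 0.141), 0.70 for GH3.5 (SE 0.61, adjusted p = 0.484) and -0.60 for IAA29 (SE 0.91, adjusted p = 0.715). In that limma fit 15.2% of probe sets were called and none of the 3 genes was. Arrays 29 and 20 were left out with their signals in these data known. For GH3.3 and GH3.5, array 20 was the highest silwet array of block 1 and array 29 its lowest SA array. Leaving them out thus raises the SA difference by the choice itself, so this fit is no separate test of SA. Whether these 2 samples carry the treatment of their labels was not tested, and they are used as labelled throughout.

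**Figure D2:**
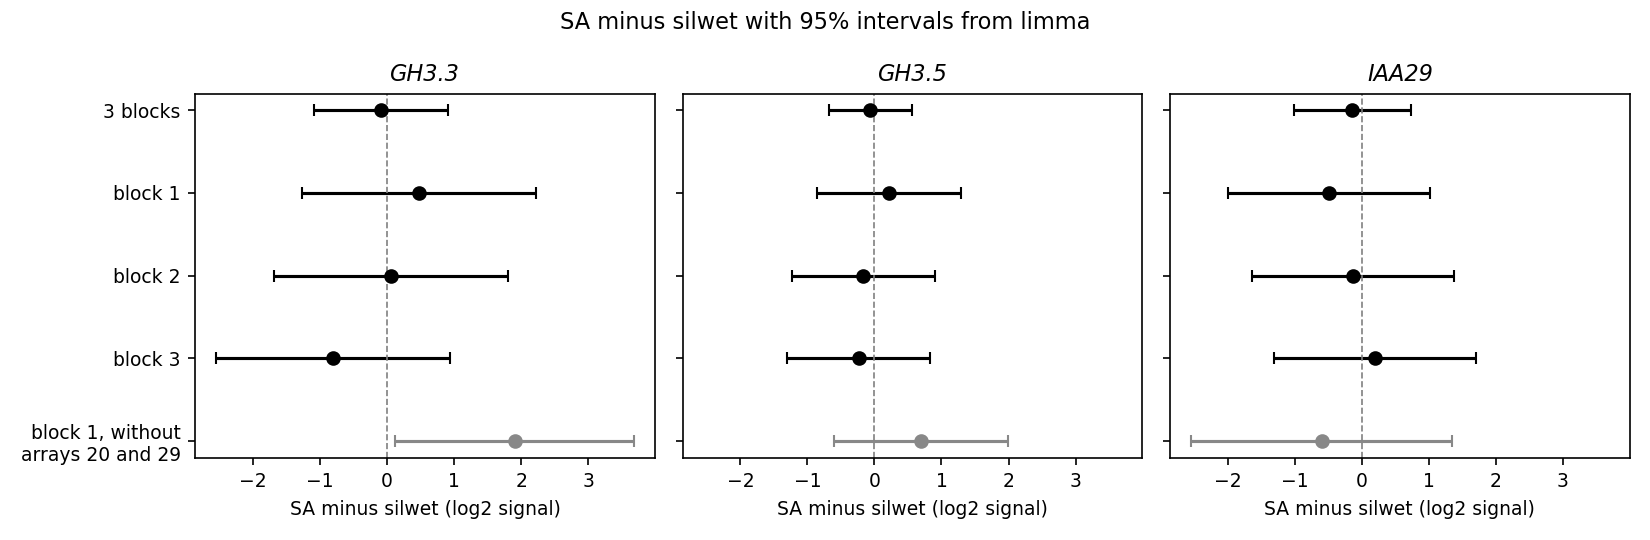
Log2 difference of SA minus silwet for GH3.3, GH3.5 and IAA29 over the 3 blocks, in each block, and in block 1 without arrays 29 and 20 (grey), with 95% intervals from limma and a dashed line at 0. Every interval spans 0 except that of GH3.3 in block 1 without arrays 29 and 20, which runs from 0.11 to 3.69. Those arrays were left out with their signals known, so that interval is no separate test of SA.

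Between serial blocks, GH3.5 was lower in block 3 than in block 1, GH3.3 was lower without passing the test, and IAA29 went the other way without passing it. Mean log2 signal of GH3.5 was 6.17 ± 0.56, 5.18 ± 0.25 and 4.99 ± 0.91 in blocks 1, 2 and 3 (SD, n = 6 each). GH3.3 had 6.29 ± 1.24, 5.64 ± 0.53 and 4.52 ± 1.30, and IAA29 had 4.22 ± 0.34, 4.90 ± 0.92 and 5.05 ± 1.22. For block 3 minus block 1, GH3.5 differed by a log2 of -1.18 (SE 0.36, limma adjusted p = 0.0395), the only call among the 3 genes, where 13.2% of all tested probe sets were called and 6.62% were called lower. The difference was -1.77 for GH3.3 (SE 0.58, limma adjusted p = 0.0545) and 0.83 for IAA29 (SE 0.50, adjusted p = 0.266). For block 2 minus block 1 it was -0.65 for GH3.3, -0.99 for GH3.5 (limma adjusted p = 0.0842) and 0.68 for IAA29, with 9.73% of probe sets called. The GH3.3 value turned to 0.37 without arrays 28, 30 and 20. The F-test over the 3 blocks called 10.1% of probe sets and none of the 3 genes, at limma adjusted p = 0.118 for GH3.3, 0.0705 for GH3.5 and 0.433 for IAA29.

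The GH3.5 call was close to its threshold. It was lost when any 1 of arrays 28, 30, 33 and 34 (SA) or 20, 21, 23, 24, 25, 26 and 27 (silwet) was left out, and without array 20 the difference was -1.02 (limma adjusted p = 0.115). Without arrays 28, 30 and 20 it was -0.85 for GH3.5 (limma adjusted p = 0.462) and -0.75 for GH3.3 (adjusted p = 0.674). In the other direction, GH3.3 passed for block 3 minus block 1 when array 29, 36 or 19 was left out, and the F-test over blocks called GH3.5 when array 29, 34, 36 or 19 was left out and GH3.3 when array 29 was (limma adjusted p = 0.0421). With replicate number as a block in the model, which was an alternative fit, GH3.5 passed that F-test and GH3.3 passed for block 3 minus block 1. Arrays 28, 30 and 20 were the highest of all 18 for GH3.3, as they were for 10.6% of the tested probe sets, whereas for GH3.5 arrays 30 and 20 were followed by array 21 (silwet) and then array 28. The SA-responsive genes UGT76B1 and WRKY53, a defence transcription factor, were called by the same F-test over blocks (limma adjusted p = 0.0163 and 0.0115), and GRX480, a glutaredoxin of SA signalling, was not (0.0508). None of these SA markers was called for SA by label. Over the blocks SA minus silwet was 0.34 for UGT76B1 (log2, SE 0.72), 0.08 for GRX480 (SE 0.35) and -0.05 for WRKY53 (SE 0.30). The part that the state of arrays 28, 30 and 20 plays in the GH3 difference was not tested beyond leaving them out. Control ratios also differed between blocks, without a common direction and without a test. The 3' to 5' signal ratio of actin was 1.03 ± 0.196, 0.926 ± 0.206 and 0.791 ± 0.160 in blocks 1, 2 and 3 (SD, n = 6 each). That of ubiquitin was 2.82 ± 0.395, 3.15 ± 0.361 and 3.15 ± 0.454, and that of GAPDH 1.16 ± 0.103, 1.05 ± 0.124 and 1.05 ± 0.0926. The part of RNA quality in the block differences was not tested.

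By replicate number, all 3 genes had their lowest mean in replicate 1, and none was called. Mean log2 signal of IAA29 was 3.86 ± 0.36, 5.22 ± 0.90 and 5.08 ± 0.81 for replicate numbers 1, 2 and 3 (SD, n = 6 each). GH3.3 had 4.67 ± 1.49, 5.95 ± 1.05 and 5.84 ± 0.93, and GH3.5 had 4.91 ± 0.92, 5.61 ± 0.62 and 5.82 ± 0.61. The replicate 1 mean of IAA29, like its block 1 mean of 4.22, lay under the cut-off for testing, a mean log2 of 4.31. IAA29 was tested because its mean over all 18 arrays was 4.72, which the arrays with high IAA29 raised. The limma F-test over replicate numbers called 5.12% of probe sets, with adjusted p = 0.0621 for IAA29, 0.123 for GH3.5 and 0.210 for GH3.3. With no filter on signal, the same F-test gave IAA29 an adjusted p of 0.0772. For replicate 2 minus replicate 1 the log2 differences were 1.28 for GH3.3, 0.71 for GH3.5 and 1.36 for IAA29 (limma adjusted p = 0.0594 for IAA29), with 3.02% of probe sets called. For replicate 3 minus replicate 1 they were 1.18 for GH3.3, 0.91 for GH3.5 (limma adjusted p = 0.0623) and 1.21 for IAA29 (0.0559), with 8.02% called.

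The IAA29 difference by replicate number was seen in blocks 2 and 3. There the 8 arrays of replicates 2 and 3 had signals of 20.5 to 63.7, against 10.8 to 17.9 in the 4 arrays of replicate 1, without overlap, which held for 3.5% of the tested probe sets. In block 1 the replicate 2 and 3 arrays had 15.5 to 29.0, against 15.99 and 19.9 in the replicate 1 arrays, and the numbers overlapped. A test of whether the difference between replicate numbers depended on the block, added after the values were seen, gave IAA29 an unadjusted limma p of 0.00374 and an adjusted p of 0.402, with 0.0293% of probe sets called. The adjusted p was 0.364 without array 20 and 0.228 without arrays 28, 30 and 20. For the F-test over replicate numbers, IAA29 passed when array 28, 29, 33, 19 or 20 was left out, with limma adjusted p = 0.0295 without array 20, and 0.0108 without arrays 28, 30 and 20. GH3.3 passed that F-test only when array 29 was left out, alone (limma adjusted p = 0.0247) or with array 20 (0.0313).

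Some measures of array quality also differed by replicate number. The 3' to 5' signal ratio of the ubiquitin control was 3.37 ± 0.384, 2.95 ± 0.431 and 2.80 ± 0.190 in replicates 1, 2 and 3 (SD, n = 6 each). The share of probe sets under a signal of 16 was 37.6% ± 1.07, 35.9% ± 1.09 and 34.9% ± 1.35. The 3' to 5' ratios of the other controls had no such order, at 1.07 ± 0.0743, 1.15 ± 0.135 and 1.04 ± 0.110 for GAPDH and 0.947 ± 0.192, 0.889 ± 0.178 and 0.914 ± 0.267 for actin. The part of these measures in the differences between replicate numbers was not tested.

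**Figure D3:**
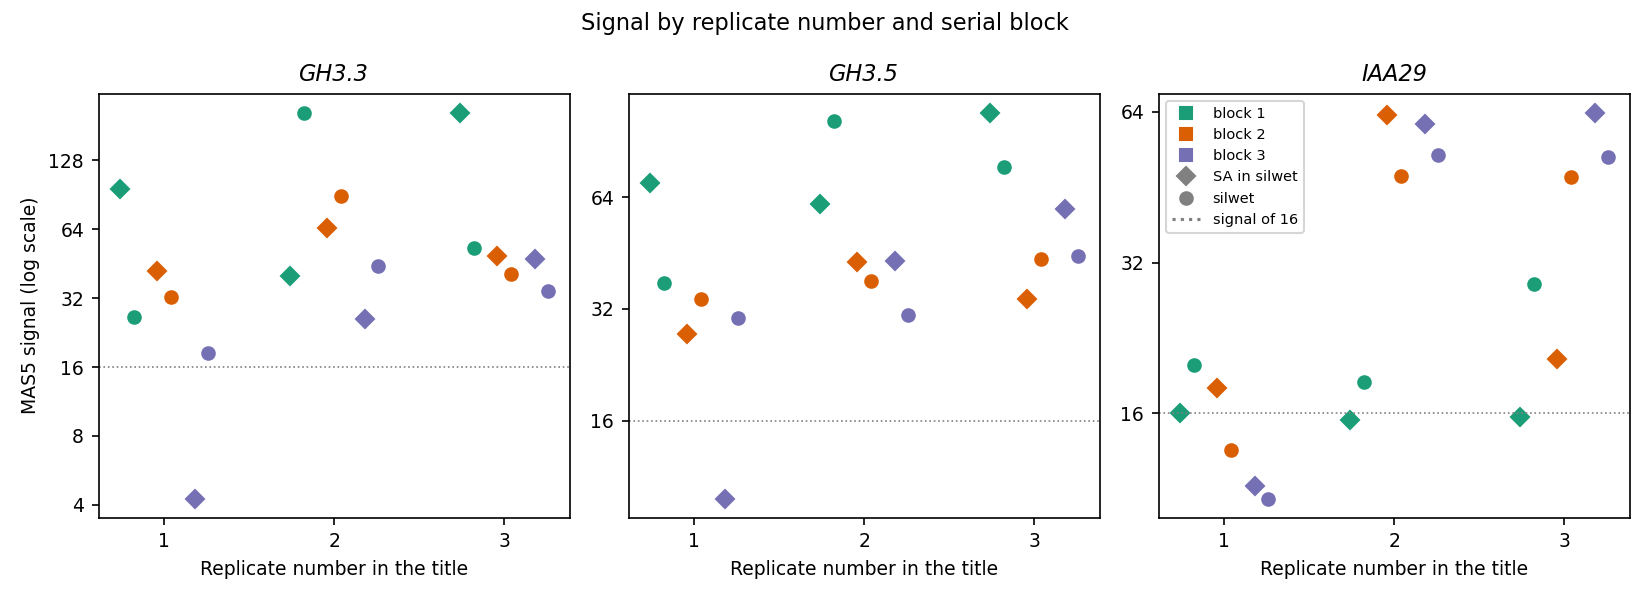
Signal of GH3.3, GH3.5 and IAA29 (log axis) in each array by replicate number in the title, coloured by serial block, with diamonds for SA in silwet and circles for silwet alone, and a dotted line at a signal of 16. In blocks 2 and 3 IAA29 lies at 20.5 to 63.7 in replicates 2 and 3 and at 10.8 to 17.9 in replicate 1; GH3.3 and GH3.5 overlap between numbers.

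GH3.3 and GH3.5 varied together across arrays, and that relation rested on a few of them. Over 18 arrays Pearson's r of log2 signal was 0.86 (permutation p = 0.000120, adjusted p = 0.0012) and Spearman's rho 0.62 (permutation p = 0.00702, adjusted p = 0.0351), with p-values adjusted over 10 tests. Leaving out the 2 arrays farthest from the GH3.3 median, r was 0.66. Without arrays 28, 30 and 20, r was 0.75 (permutation, adjusted p = 0.0611) and rho 0.36, and leaving out the 2 farthest of those 15 arrays brought r to 0.11. Within blocks 1, 2 and 3, r was 0.92, 0.35 and 0.92 over 6 arrays each, at exact adjusted p = 0.0556, 0.534 and 0.0833. Leaving out the 2 arrays of each block farthest from its GH3.3 median, r was 0.79, -0.06 and 0.08. Each pair of values shares 1 array and its scaling. The permutations over 18 and 15 arrays ignored block and replicate number, so their p-values also take in differences between blocks that both genes share. IAA29, whose values lie on both sides of a gap, was not tested for a correlation with either gene.

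**Figure D4:**
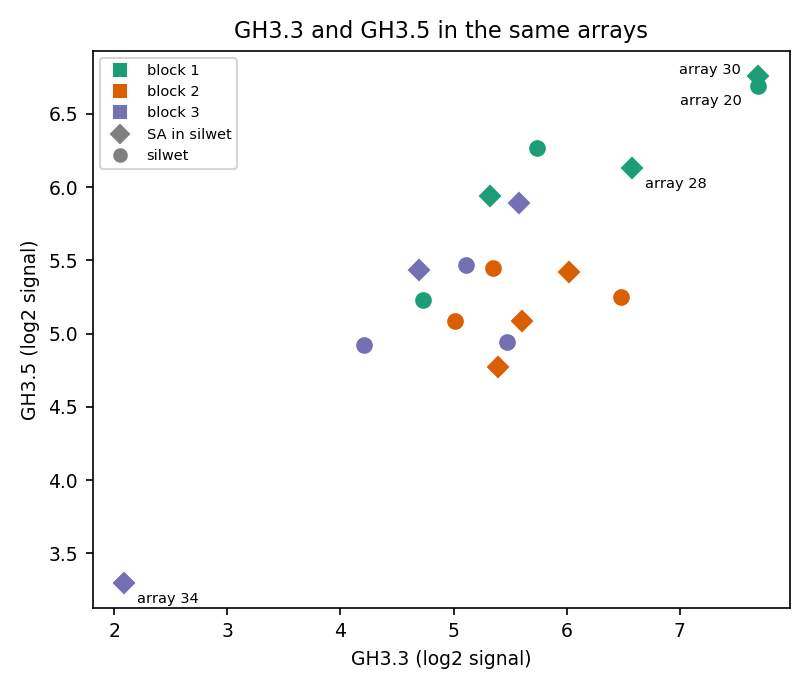
Log2 signal of GH3.5 against GH3.3 in the 18 arrays, coloured by serial block, with diamonds for SA in silwet and circles for silwet alone. Arrays 30, 20 and 28 lie at the upper right and array 34 alone at the lower left; Pearson's r is 0.86 over all arrays and 0.75 without arrays 28, 30 and 20.

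The genes whose pattern was most like each of the 3 were taken from the 7341 other tested probe sets with 1 gene, by Pearson's r of log2 signal over the 18 arrays, as a description with no test. Since the IAA29 values lie on both sides of a gap, its r only ranks genes. For IAA29 the most like were AT4G24610 (r = 0.89), AT4G33400 (0.87), EXPA8 (0.85), FBL17 (0.85) and AT5G66590 (0.84), and the least like were AT5G16450 (-0.86), AT5G26610 (-0.83) and AT3G18280 (-0.81). EXPA8 is an expansin, a protein that loosens cell walls, and FBL17 an F-box protein of the cell cycle. EXPA8 was the most like of all, at 0.90, when arrays 28, 30 and 20 were left out. Its signal was 216.4 to 354.6 in the 7 arrays with high IAA29, against 35.4 to 163.1 in the other 11, and array 33 held the 163.1. EXPA8 was picked by its likeness to IAA29 in these same arrays, so this separation is no separate result. Its share among the tested probe sets was not counted. AT4G33400 was separated too, at 76.8 or more against 76.2 or less, and AT4G24610, FBL17 and AT5G66590 overlapped. Over the 18 arrays IAA29 had a Pearson's r of 0.17 with GH3.3 and 0.14 with GH3.5. These were 0.56 and 0.47 when arrays 28, 30 and 20 were left out.

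For GH3.3 the most like were AT2G38410 (r = 0.95), AT1G75990 (0.93), AT4G23460 (0.91), AT1G17500 (0.91) and AT5G11560 (0.90). The least like were ARD4 (-0.92), an acireductone dioxygenase of methionine salvage, AT1G71480 (-0.91) and AT5G03660 (-0.90). For GH3.5 the most like were AT1G33590 (0.93), AT1G21670 (0.93), AT1G80450 (0.92), AT3G10720 (0.92) and ENGase85B (0.92), an endo-beta-N-acetylglucosaminidase, and the least like were AT2G25625, AT3G57785 and AT3G03100 (-0.92 each). GH3.5 was number 26 by likeness to GH3.3, and number 330 when arrays 28, 30 and 20 were left out. By likeness to GH3.5, GH3.3 was number 47, and number 216 without those arrays. Array 34 was the lowest array for every most like gene named for GH3.3 or GH3.5, and the highest for every least like gene. In array 34 ARD4 had 662.8, against 126.2 to 361.8 in the other arrays, and ENGase85B had 8.25, against 15.8 to 63.0. The genes were not ranked again without array 34, so how far these lists rest on that array was not tested.

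Few other genes of the auxin pathway could be set beside them. Of 88 auxin genes on the lists, 16 were read by a probe set of 1 gene and 6 were tested, 3 of them the genes above. The other 3 were IAA18, another Aux/IAA repressor, YUC2, a flavin monooxygenase of auxin synthesis, and AT1G14130, and 0 of them were called for SA, block or replicate number. IAA18 had signals of 56.9 to 119.7 and a log2 difference of 0.08 with SA (SE 0.15), YUC2 one of -0.11 (SE 0.18) and AT1G14130 one of 0.22 (SE 0.14). For replicate 3 minus replicate 1, IAA18 differed by 0.49 (SE 0.14) and YUC2 by 0.55 (SE 0.16), with limma adjusted p = 0.0968 and 0.0893 in the F-test over replicate numbers. The median SA difference was -0.08 over the 6 auxin genes, against -0.02 over all tested probe sets. Over the 3 auxin genes other than GH3.3, GH3.5 and IAA29 it was 0.08.

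Other GH3 and Aux/IAA genes with a probe set of their own were too dim to test. GH3.1 reached a signal of at most 4.49, GH3.9 24.6 and GH3.17 19.0, and IAA20, IAA30, IAA31, IAA33 and IAA34 reached at most 19.1. The synthesis genes YUC4 and YUC6 reached at most 20.3. The 14 auxin response factors, 5 receptors and 12 transport genes on the lists were matched to no probe set of 1 gene, nor was any symbol beginning with SAUR, and they were not analysed here. HAT2, an auxin-induced homeodomain protein, and GI, a clock gene with signals of 126.9 to 564.4, were tested and not called, with SA differences of 0.06 (SE 0.17) and -0.31 (SE 0.24).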

How the data were processed

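For 18 samples the authors deposited a single table of probe set signal intensity. MAS5 produced it, per the submitters' processing notes, and the sources used here give neither its version nor its settings. Every column has a 2% trimmed mean near 100.01, so no further scaling was applied. Scaling of this kind hides a change in total RNA, and MAS5 signal is noisiest when low. Control probe sets (64) were dropped, and log2 was taken with no pseudocount. Probe sets with a mean log2 signal at or above the 40th percentile (4.31, a signal of 19.9) were tested. Symbols came from the platform gene table, updated through the TAIR10.1 table.

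A linear model in limma 3.58.1 (R 4.3.3; lmFit, then eBayes with a trend on intensity) was fitted to 6 groups of treatment by block, and replicate number was added as a term to compare the numbers. Calls are at a Benjamini-Hochberg adjusted p under 0.05 over all 13648 tested probe sets. Correlations used permutation tests in scipy 1.17.1 (100000 resamples, exact for 6 arrays). The fitting code was first tested on simulated data with known changes.

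The genes, lists, tests and alternatives were chosen with earlier results of these data known. Genes named beside the 3 are the 5 most and 3 least like each, and from each list up to 4 members called by the F-test over blocks or, where none was called, the 2 with the smallest p. Genes too dim to test were chosen for mention with their values in view. Alternatives changed the scale (a pseudocount of 8, quantile normalization, median centring), the filter (none, or the 60th percentile), or the model (array weights, no trend, no block term, a replicate block), or left out replicate numbers or arrays. Leaving out each single array other than array 20 was added after seeing the data.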

Additional observations from a re-analysis of the deposited data

Results flagged for a closer look

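GH3.3 in array 30, SA replicate 3 of block 1, lay apart from the other arrays of replicate number 3. Its signal was 206.2, and its gap to the nearest of the other 5 arrays was 0.758 of the whole log2 range of that group, against a critical value of 0.625 for 6 arrays. It was the only one of 24 groups examined, and chance gives about 1 such group in 20.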

How the results depend on the processing

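None of the 3 genes was called for SA, over the blocks or in any block, under any alternative run, and the 60th percentile filter left all 3 untested. Several estimates changed sign. SA minus silwet over the blocks was 0.14, 0.18 and 0.38 for GH3.3 and 0.12, 0.04 and 0.10 for GH3.5 (log2) with array weights, without array 20 and without arrays 29 and 20. With array weights it was -0.079 for GH3.3 in block 2 and 0.36 for GH3.5 in block 3. Block 2 minus block 1 was 0.37 for GH3.3 without arrays 28, 30 and 20. Same-numbered SA and silwet arrays of a block did not deviate together throughout. The correlation of their deviations from the group means ran from -0.70 (arrays 29 and 20) to 0.66 (median 0.32), and was over 0.1 in 6 of 9 pairs. It was 0.03 to 0.66 in blocks 2 and 3, and -0.70, -0.00016 and 0.12 in block 1. Pairs of unlike number had a median of -0.12, with 6 of 18 over 0.1. The same-numbered correlation was the highest that an array had in its block for 10 of 18 arrays. The number was not treated as pairing the samples, so any effect of it stays in the spread of the main SA and block tests. With the replicate block, fixed or random, the limma F-test over blocks called 1810 or 1855 probe sets, against 1381 without it, and gave GH3.5 an adjusted p of 0.0255 or 0.0396, and with array weights 0.00631. GH3.3 passed for block 3 minus block 1 with the replicate block (-1.77), array weights (-1.27) and without arrays 29 and 20 (-1.66), and IAA29 with array weights (1.22). GH3.5 lost that call with no filter (-1.18), without array 20 (-1.02), without arrays 29 and 20 (-1.10) and without arrays 28, 30 and 20 (-0.85). For replicate numbers, the limma adjusted p of GH3.3 was 0.0313 without arrays 29 and 20. That of IAA29 was 0.0230 with array weights, 0.0295 without array 20, 0.0124 without arrays 29 and 20 and 0.0108 without arrays 28, 30 and 20. Probe sets called over blocks numbered 3896 with array weights, 521 without array 20, 2256 without arrays 29 and 20 and 119 without arrays 28, 30 and 20. Over replicate numbers they were 378 with the 60th percentile filter, 1464 without arrays 29 and 20 and 400 with no block term. For SA they were 2074 in block 1 without arrays 29 and 20, and 1 in block 2 with array weights and without arrays 28, 30 and 20. For the SA difference between blocks they were 321 without arrays 29 and 20 and 1 without arrays 28, 30 and 20. Apart from the tests with fewer arrays or probe sets, the cause was not tested. For the ranges that follow, 1 replicate number, or 1 array other than array 20, was left out at a time. SA minus silwet over the blocks then ran from -0.58 to 0.46 for GH3.3, -0.23 to 0.20 for GH3.5 and -0.39 to 0.13 for IAA29. In block 1 it ran from -0.26 to 1.90 for GH3.3 and -0.20 to 0.70 for GH3.5, with 0 to 1129 probe sets called. In block 2 it ran from -0.24 to 0.49 for GH3.3 and -0.74 to 0.41 for IAA29, with 0 to 1 called. In block 3 it ran from -1.53 to 0.21 for GH3.3, -0.74 to 0.55 for GH3.5 and -0.57 to 1.01 for IAA29. The highest block 3 value of each gene was that without array 34. The SA difference between blocks called 0 to 77 probe sets. The limma adjusted p over blocks ran from 0.0421 to 0.399 for GH3.3, 0.0296 to 0.369 for GH3.5 and 0.0447 to 0.918 for IAA29, with 11 to 3396 called. Block 3 minus block 1 ran from -2.13 to -1.26 for GH3.3, -1.43 to -0.78 for GH3.5 and 0.37 to 1.58 for IAA29. The limma adjusted p over replicate numbers ran from 0.0247 to 0.995 for GH3.3 and 0.0353 to 0.986 for IAA29, with 0 to 1362 called. Where a whole replicate number was left out, that test compared only the numbers that remained. Signals near 16 limit the low IAA29 level.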
